A study of Mus musculus with 12 samples.

Results

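The comparison described here is the 4 h step from circadian time (CT) 8 h to CT12, the late part of the subjective day, in the whole urinary bladder of mice. It uses the 2 arrays labelled CT8 and the 2 labelled CT12, chosen by their titles, which is 4 of the 12 arrays of the series. All mice were wild-type C57BL/6 females of 10 weeks, housed for 2 weeks in a cycle of 12 h light and 12 h dark before the move to constant darkness; they received no treatment that the labels name. The groups therefore differ in the labels only by the time of killing. For how many days the mice had been in darkness is not given, and neither is whether an array held RNA of a single mouse, so p-values measure the spread between arrays. Steps of equal length from CT16 to CT20 and from CT0 to CT4, with 4 arrays each, served for comparison; they share no array with the step described.

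In constant darkness CT0 is by convention the start of the animal's subjective day and CT12 the start of its subjective night, when a nocturnal mouse becomes active and voids most often. The molecular clock is a feedback loop in which CLOCK and ARNTL (BMAL1) drive the Per, Cry and Nr1d genes through E-box sequences, and the PER and CRY proteins and the NR1D repressors act back on the loop. Immediate early genes are a second class of time-varying transcripts in a whole organ: they encode transcription factors and secreted regulators whose mRNA rises within minutes of a stimulus such as stretch, nerve activity, hormones or handling, and decays quickly.

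Levels are log2 processed intensities minus the 75th percentile of the array, so that 0 is the intensity below which 75% of that array's probes lie. The percentile itself was 844 and 984 intensity units on the CT8 arrays, which are the lowest and the highest of all 12 arrays, and 914 and 942 on the CT12 arrays. The share of spots well above background was 64.2% to 70.2%, and 0 spots were saturated. All 4 arrays lay on slide 2, with CT8 at positions 1 and 2 and CT12 at positions 3 and 4, so that position on the slide and time cannot be told apart. The 15 markers checked for bladder tissue (smooth muscle, urothelium, fibroblast and endothelium) were well above background on all 4 arrays. The smooth muscle actin Acta2 had a mean level of 8.54 at CT8 and 8.55 at CT12. The urothelial plaque protein Upk2 had 6.18 and 5.82.

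No gene of the 18390 tested passed an adjusted p of 0.05 between CT8 and CT12 (0 called, 0%; limma with Benjamini-Hochberg adjustment), and the smallest adjusted p was 0.154. At an unadjusted p under 0.05, 1096 genes (5.96%) were higher and 1302 (7.08%) lower at CT12, so that 45.7% of these calls were higher; this share was 30.9% with arrays scaled by their median, 50.3% with the mean of a gene's probes and 54.7% in a fit of the 4 arrays alone, so that its side of even depends on the setting. The 2 values of CT12 lay above both values of CT8 for 3621 genes (19.7%) and below both for 4508 (24.5%), which makes 44.2% without overlap in either direction. The median difference over all genes was -0.01. Individual genes are therefore described below by their values, with unadjusted p-values that do not survive correction. An exact permutation test of 2 arrays against 2 cannot give a p below 0.333. Across genes, the SD of the log2 difference between arrays was 0.45 and 0.48 for the pair of the same time and 0.45 to 0.52 for pairs of different times, which is to say that arrays 4 h apart differed little more than arrays of the same time.

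The distribution was lopsided at its far end. A difference of at least 1 on the log2 scale was reached by 280 genes in the direction of CT12 (1.52%) and by 102 in the direction of CT8 (0.555%). These counts include dim genes. Well above background on both CT12 arrays and neither CT8 array were 169 of the genes tested, and 7 were so the other way round. The part of dim genes in the uneven counts was not tested. Among named genes well above background on all 4 arrays, with an unadjusted p under 0.05 and no overlap, 5 of the 6 with the largest excess at CT12 were the matricellular proteins Ccn1 and Ccn2, the nuclear receptor Nr4a1, the angiomotin family member Amotl2 and the phosphatase Dusp1; the other was neuronatin (Nnat). On the opposite side, the largest differences were those of Xlr3c, Slc6a18, Bnc1 and the clock repressor Nr1d1.

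**Figure D1:**
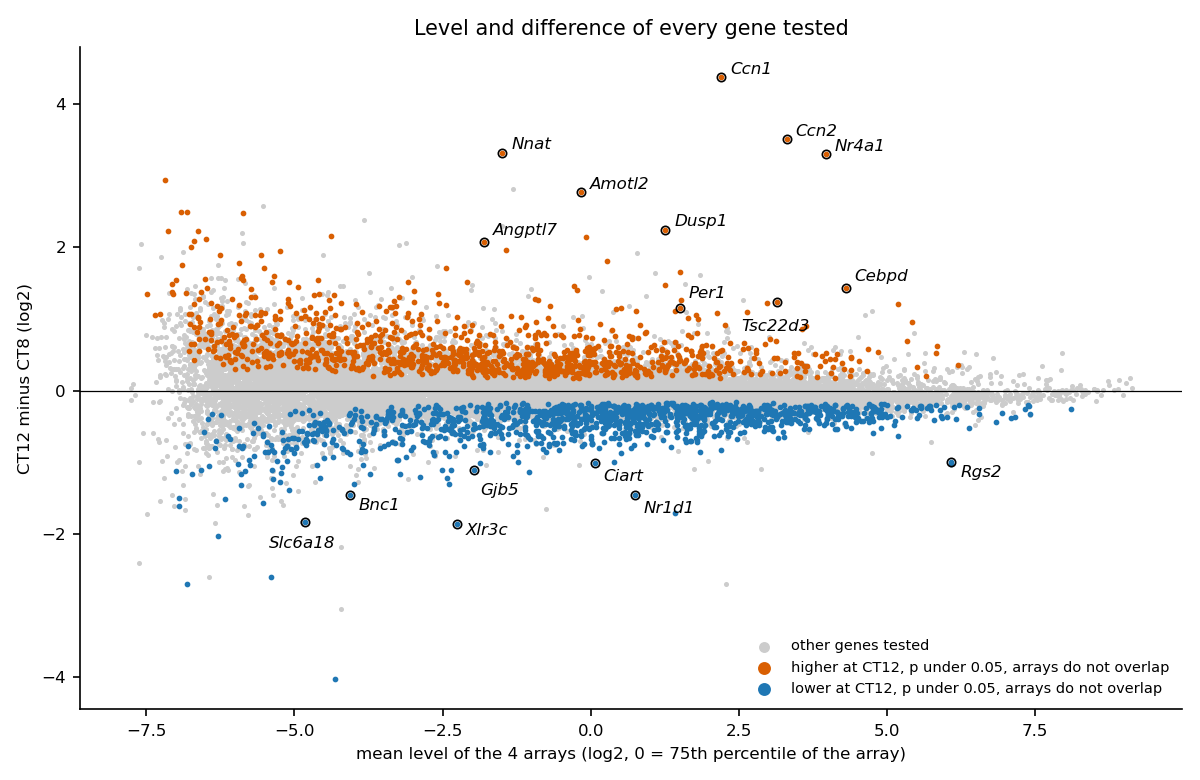
Each dot is 1 of the 18390 genes; the horizontal axis gives its mean level over the 4 arrays (log2) and the vertical axis the CT12 mean minus the CT8 mean (log2). Coloured dots had an unadjusted p under 0.05 and no overlap of arrays; Ccn1 stands highest at 4.38, and Nr1d1 at -1.46 and Rgs2 at -1.0 lie among the well-measured genes lower at CT12.

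Of all lists counted, the immediate early genes had the most members higher at CT12 at an unadjusted p under 0.05. All 24 measured members had a positive difference, with a median of 0.84; 18 (75%) had CT12 arrays above both CT8 arrays and 0 had them below, beside 19.7% and 24.5% of all genes. At an unadjusted p under 0.05, 14 (58.3%) were higher and 0 lower, beside 5.96% and 7.08% of all genes. By share, a shorter list of cAMP-responsive targets, described below and made after the values were seen, had more higher (62.5%). Under median scaling 22 of the 24 differences were positive and under normexp background correction 23, while all 24 were positive with quantile scaling and in the authors' table.

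Ccn1 (also known as Cyr61), a secreted matrix-associated regulator of adhesion, had levels of 0.01 and 0.00 on the CT8 arrays and 4.23 and 4.54 on the CT12 arrays. The difference of 4.38 ± 0.79 (SE) is 20.8-fold, or 12.0- to 35.9-fold at 1 SE to either side (limma, adjusted p = 0.246). Of the 6 times, its mean was lowest at CT8 and highest at CT12. Its probe lies on chromosome 3 at 145544387 to 145544446 of mm7, the build in the array files; no annotation of that build was used to place it in an exon or UTR.

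Ccn2 (connective tissue growth factor), its close relative, had 1.72 and 1.39 at CT8 and 4.95 and 5.17 at CT12. That is a difference of 3.51 ± 0.55, or 11.4-fold (adjusted p = 0.215). Both CCN genes thus had CT12 arrays far above the CT8 arrays and their 6-time extremes at these same 2 times.

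Nr4a1 (Nur77), an orphan nuclear receptor known for rapid induction, had 1.94 and 2.70 at CT8 against 5.54 and 5.69 at CT12. The difference was 3.30 ± 0.52, or 9.83-fold (adjusted p = 0.215). Dusp1, a phosphatase that switches off MAP kinases and is also glucocorticoid-responsive, had -0.25 and 0.52 against 2.21 and 2.54, a difference of 2.24 ± 0.38 or 4.73-fold (adjusted p = 0.226). In neither gene did the arrays of the 2 times overlap, and in both CT8 was the lowest and CT12 the highest of the 6 times. The Nr4a1 probe lies on chromosome 15 at 101260484 to 101260543 and the Dusp1 probe on chromosome 17 at 24690398 to 24690455 (mm7).

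The AP-1 and EGR transcription factors had smaller or less even differences. Fos had -1.36 and 0.10 at CT8 and 1.39 and 0.97 at CT12 (difference 1.81 ± 0.77, adjusted p = 0.374). Egr1 had 0.14 and 1.22 against 2.18 and 2.49 (1.66 ± 0.42, adjusted p = 0.265). Atf3, a stress-induced factor, had -1.92 and -0.40 against 0.59 and 1.39 (2.15 ± 0.54, adjusted p = 0.265). For these 3 genes and Arc (1.96, adjusted p = 0.362), CT8 was the lowest of the 6 times but CT0, not CT12, the highest. Klf4 had the smallest p of the list: its levels of 5.0 and 4.97 at CT8 and 5.80 and 5.56 at CT12 differed by 0.69 ± 0.10 (adjusted p = 0.215). The other members at an unadjusted p under 0.05 were Ier3 with a difference of 1.11, Jun and Nr4a2 with 0.78 each, Myc with 0.53 and Klf6 with 0.50.

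On the probes used, the other 10 members did not reach that threshold. The largest of these differences were 1.35 for Fosb (adjusted p = 0.481), 0.95 for Egr2, 0.73 for Btg2 and 0.61 for Zfp36. Egr3 was well above background on neither CT8 array and was at least 1.76-fold higher at CT12 (adjusted p = 0.567); its other probe was well above background on none of the 4 arrays. Junb, with 5.54 and 6.12 at CT8 and 5.66 and 6.03 at CT12, differed by 0.02 and Fosl2 by 0.00. The signs of Junb, Fosl2 and Ier2 (0.18) turned under some settings, as given in the closing section. On the probes used, the list thus spanned differences from 0.00 to 4.38. For Ier2 and Klf2 the size of the difference depended on the probe. The probes used gave 0.18 for Ier2 and 0.19 for Klf2. A second Ier2 probe gave 0.68 ± 0.23. A second Klf2 probe had mean levels of 3.42 at CT8 and 4.93 at CT12. Both second probes were well above background on all 4 arrays and had an unadjusted p under 0.05 (limma).

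**Figure D2:**
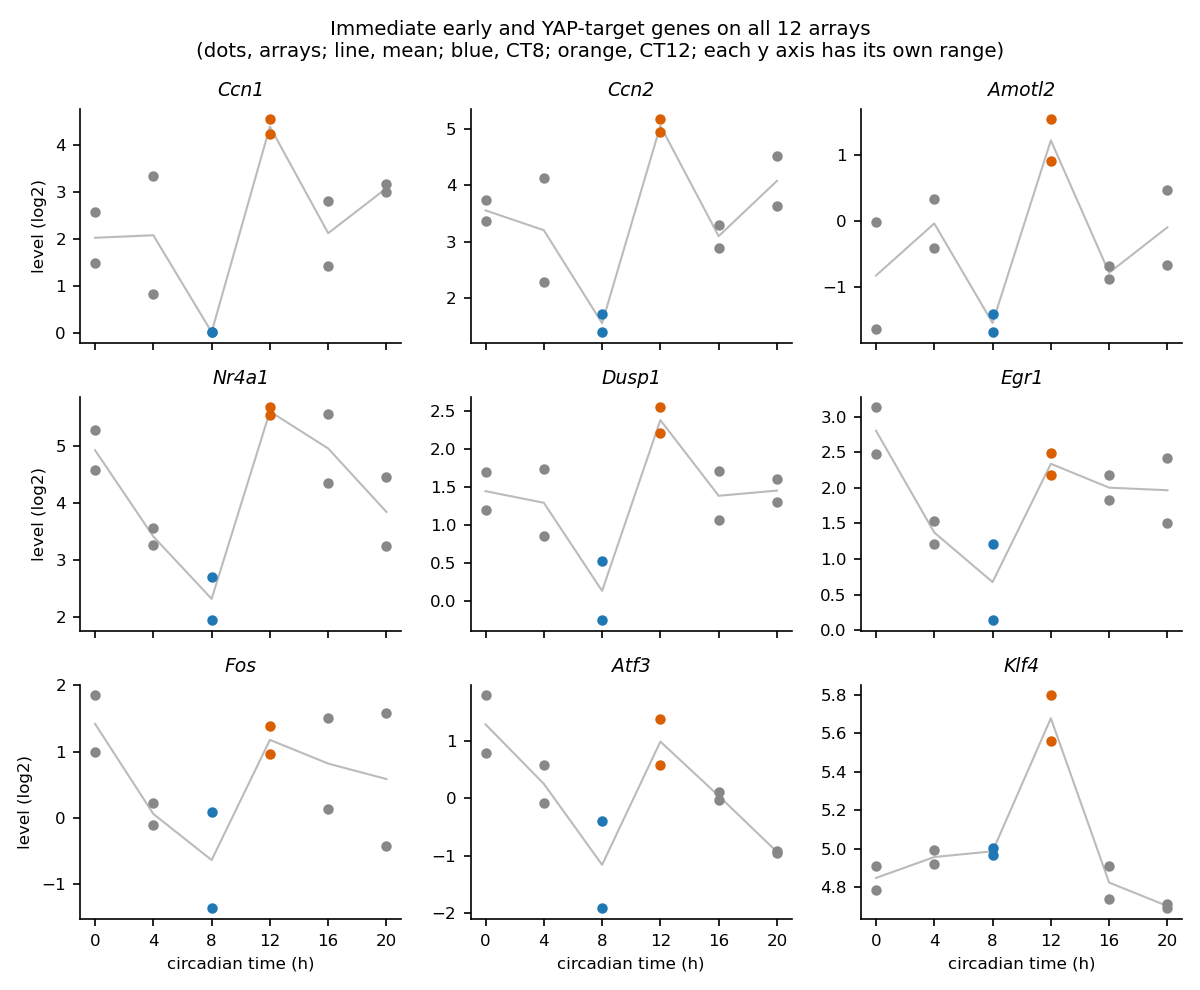
Levels (log2, each panel with its own range) of 9 genes on all 12 arrays against circadian time in hours; dots are arrays, the line joins the means, CT8 is blue and CT12 orange. Ccn1, Ccn2, Amotl2, Nr4a1 and Dusp1 are lowest at CT8 and highest at CT12, whereas Egr1, Fos and Atf3 are lowest at CT8 and highest at CT0.

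Targets of YAP and TEAD, the effectors of the Hippo pathway that responds to stretch and cell shape, were listed after the values of this step had been seen, because Ccn1, Ccn2 and Amotl2 are textbook members. Of 26 measured, 6 were higher and 0 lower at an unadjusted p under 0.05 (5.96% and 7.08% of all genes), 12 had CT12 arrays above and 5 below (19.7% and 24.5%), and the median difference was 0.11, or 0.0546 with median scaling. The 6 include Ccn1, Ccn2 and Amotl2, which prompted the list, so this count cannot be weighed against the shares of all genes. Amotl2, which binds YAP and limits it, had -1.40 and -1.68 at CT8 and 1.54 and 0.91 at CT12, a difference of 2.77 ± 0.57 or 6.80-fold (adjusted p = 0.246). Ajuba differed by 1.47 (adjusted p = 0.265), the kinase Lats2 by 0.50 and the receptor Axl by 0.39. Of the 3 other Lats2 probes, 2 gave 0.84 and 0.54 and 1 gave -0.04. Ankrd1, another widely used target, differed by 2.07 with a wide error of 1.21 (adjusted p = 0.502). The median thus lay close to 0, with a few members far above it.

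Targets of cAMP signalling through CREB, also listed after the values were seen, overlap the immediate early list in Nr4a1, Nr4a2, Fos and others. The median of the 16 measured was 0.96. At an unadjusted p under 0.05, 10 were higher and 2 lower, beside 5.96% and 7.08% of all genes. Besides the shared genes, the higher members included the phosphodiesterase Pde4b (1.15), the prostaglandin synthase Ptgs2 (1.39), the neurotrophin Bdnf (1.52) and the kinase Sik1 (0.77). In the other direction stood Rgs2, which dampens Gq-coupled receptor signalling in smooth muscle: 6.62 and 6.54 at CT8 against 5.44 and 5.72 at CT12, a difference of -1.0 ± 0.17, 2.01-fold lower (adjusted p = 0.226). Ppargc1a, a coactivator for mitochondrial genes, differed by -0.99 (adjusted p = 0.247).

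To show the sequence in front of 4 of these genes, whose 300-base windows are in the promoter table used, the bases around the RefSeq start (GRCm38.p6) are given 5′ to 3′ on the gene's strand, at chr3:145649936-145650235 on the minus strand for Ccn1, chr15:101266596-101266895 on the plus strand for Nr4a1, chr9:102717554-102717853 on the plus strand for Amotl2 and chr17:26508423-26508722 on the minus strand for Dusp1. Capitals mark matches, on either strand, to GGAATG (the core read by TEAD factors), TGACG (the core of the CREB site) and CACGTG (the E-box).
Ccn1: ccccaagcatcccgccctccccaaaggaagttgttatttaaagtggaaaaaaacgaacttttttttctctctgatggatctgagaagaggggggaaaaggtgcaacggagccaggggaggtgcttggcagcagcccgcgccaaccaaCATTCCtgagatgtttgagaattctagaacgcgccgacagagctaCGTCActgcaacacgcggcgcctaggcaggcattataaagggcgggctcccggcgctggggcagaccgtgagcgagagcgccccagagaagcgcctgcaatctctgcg
Nr4a1: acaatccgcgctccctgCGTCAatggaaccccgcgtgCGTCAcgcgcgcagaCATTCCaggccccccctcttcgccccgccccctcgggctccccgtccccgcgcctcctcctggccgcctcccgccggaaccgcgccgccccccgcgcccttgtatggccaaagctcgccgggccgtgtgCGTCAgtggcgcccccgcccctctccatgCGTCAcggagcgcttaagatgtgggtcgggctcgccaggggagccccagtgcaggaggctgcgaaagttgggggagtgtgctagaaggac
Amotl2: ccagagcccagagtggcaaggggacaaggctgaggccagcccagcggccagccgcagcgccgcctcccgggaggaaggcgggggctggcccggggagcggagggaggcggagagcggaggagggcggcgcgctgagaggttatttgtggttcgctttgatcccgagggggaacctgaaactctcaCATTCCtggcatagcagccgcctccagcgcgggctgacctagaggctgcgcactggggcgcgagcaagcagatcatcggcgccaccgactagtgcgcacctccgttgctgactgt
Dusp1: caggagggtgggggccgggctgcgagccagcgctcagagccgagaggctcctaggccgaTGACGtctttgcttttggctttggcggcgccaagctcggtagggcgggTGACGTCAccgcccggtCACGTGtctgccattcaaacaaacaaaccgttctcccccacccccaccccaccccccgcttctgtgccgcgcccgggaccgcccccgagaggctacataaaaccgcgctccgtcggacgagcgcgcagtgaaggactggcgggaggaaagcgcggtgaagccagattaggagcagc
The TEAD core matched 1 time each in the Ccn1, Nr4a1 and Amotl2 windows, against 14.7% of all 32851 windows with a match. The CREB core matched 4 times in Nr4a1, 3 times in Dusp1 (1 palindromic stretch there counts on both strands) and 1 time in Ccn1, against 20.8% of windows. Dusp1 also had 1 E-box, found in 7.15% of windows. These are letter matches and were not tested as sites.

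The step was set against the steps within the other 2 slides, which have the same layout of earlier time at positions 1 and 2 and later time at positions 3 and 4. The median over the 24 immediate early genes was 0.84 from CT8 to CT12, -0.08 from CT16 to CT20 and -0.16 from CT0 to CT4. For Nr4a1 the difference was 3.30, -1.12 and -1.52 in that order, and the step from CT8 differed from the others by 4.41 ± 0.74 (adjusted p = 0.102) and 4.82 ± 0.74 (adjusted p = 0.147). Ccn1 had 4.38, 0.96 and 0.05, so that the differences of steps were 3.42 ± 1.11 (adjusted p = 0.203) and 4.32 ± 1.11 (adjusted p = 0.194).

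Over the list, the step from CT8 was more positive than that from CT16 in 10 genes and than that from CT0 in 14, and more negative in 0, at an unadjusted p under 0.05. Over all genes, 7.49% were more positive and 9.23% more negative against the step from CT16, and 7.49% and 7.75% against that from CT0. In either direction 3075 (16.7%) and 2803 (15.2%) of all genes passed that threshold. After adjustment 0 genes (0%) differed from the step of the late subjective night and 1 (0.00544%) from that of the early subjective day; the latter was Nr1d1.

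**Figure D3:**
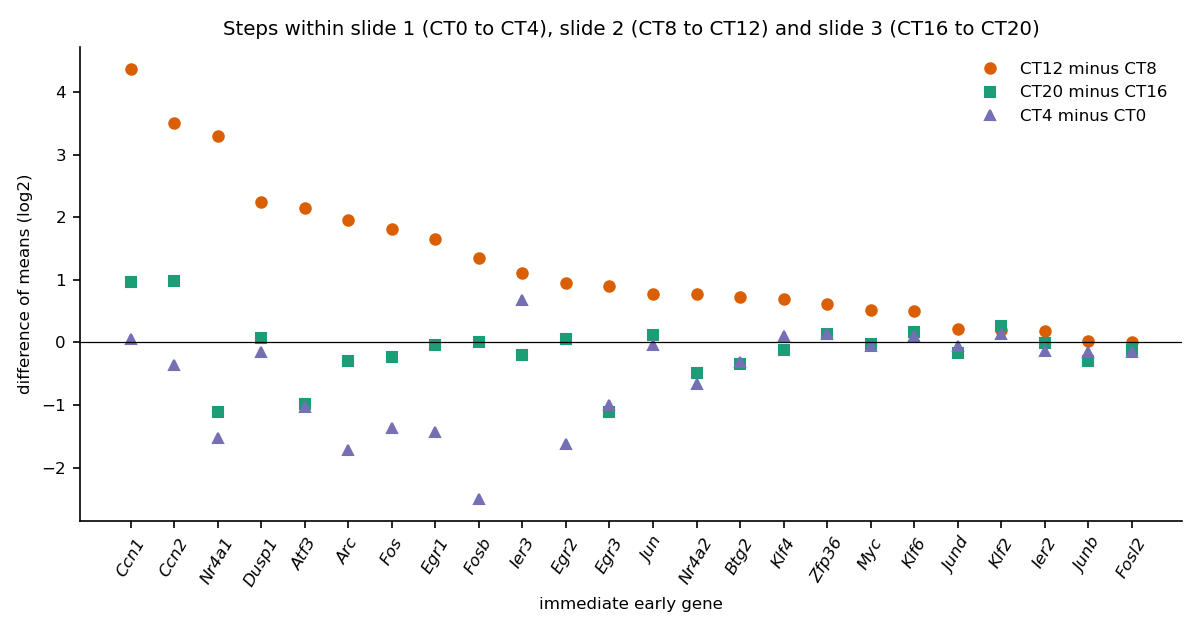
The 24 measured immediate early genes, ordered by their difference between CT8 and CT12; the vertical axis is the difference of the 2 means (log2) for the step within each slide. All CT12 minus CT8 points lie at or above 0, from 0.00 to 4.38 (22 of 24 do so under median scaling and 23 under normexp), while the other 2 steps scatter on both sides of 0.

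Core clock genes gave differences of both signs, with a median of 0.09. At an unadjusted p under 0.05, 4 of 22 were higher and 3 lower, beside 5.96% and 7.08% of all genes. Nr1d1 (REV-ERB alpha), a repressor of Arntl, had 1.32 and 1.63 at CT8 and 0.04 and -0.02 at CT12. The difference was -1.46 ± 0.16, 2.76-fold lower (adjusted p = 0.154). From CT0 to CT4 its difference was 1.92, and the contrast of the 2 steps, -3.38 ± 0.23, was the only one past the adjusted threshold (adjusted p = 0.0095). This call was lost with the mean of a gene's probes (0 genes passed, smallest adjusted p = 0.0616), without CT8 replicate 2 (0.0650) and without CT12 replicate 1 (0.0626). Over the step from CT8 to CT12, other probes named Nr1d1 gave -1.06 ± 0.25 and -0.20 ± 0.35.

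The Period genes and Cry1, which encode the loop's negative limb, were on the other side. Per1 had 0.82 and 1.05 at CT8 and 1.95 and 2.21 at CT12, a difference of 1.15 ± 0.17 or 2.21-fold (adjusted p = 0.215), and CT12 was its highest time. Per2 had -0.67 and -0.65 against 0.16 and 0.05 (0.76 ± 0.24); a second Per2 probe gave 0.26 ± 0.24. Per3 had -5.34 and -4.31 against -3.46 and -3.75 (1.22 ± 0.34).

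Cry1 had -4.26 and -3.76 against -2.74 and -3.05, which is a difference of 1.11 ± 0.18 (adjusted p = 0.215), and its second probe gave 0.56 ± 0.10. Its mean was higher still at CT16, the highest of the 6 times, while the 3 Period genes were highest at CT12. None of these 4 genes had arrays of CT8 and CT12 that overlapped.

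Ciart (Chrono), another repressor of the loop, had 0.69 and 0.46 at CT8 and -0.72 and -0.16 at CT12 (-1.02 ± 0.33). Clock, the positive-limb partner of Arntl, differed by -0.25 (adjusted p = 0.343), and its 3 other probes gave -0.86, -0.42 and -0.19. Bhlhe41 differed by -0.42 (adjusted p = 0.397). Arntl (0.02), Nr1d2 (0.01) and Cry2 (0.12) stood at nearly the same level at both times; the first 2 changed sign under other scalings. Nr1d2 and Nr1d1, the 2 REV-ERB genes, thus had different values over the step: 2.01 and 1.88 at CT8 against 1.99 and 1.91 at CT12 for Nr1d2, beside the 2.76-fold lower Nr1d1. That contrast between the 2 genes was not tested.

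The Per1 and Ciart windows, shown as an example of a pair of E-box genes with opposite differences over the step, read as follows (RefSeq, GRCm38.p6, chr11:69098699-69098998 on the plus strand for Per1 and chr3:95882179-95882478 on the minus strand for Ciart; Per1 has 2 windows in the table and 1 is shown; capitals as above).
Per1: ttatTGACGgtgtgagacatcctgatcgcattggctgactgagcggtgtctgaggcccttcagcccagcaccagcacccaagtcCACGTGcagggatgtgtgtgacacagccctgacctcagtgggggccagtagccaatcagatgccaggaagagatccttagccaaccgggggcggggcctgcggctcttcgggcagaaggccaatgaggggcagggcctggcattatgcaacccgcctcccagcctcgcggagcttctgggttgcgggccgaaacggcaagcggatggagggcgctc
Ciart: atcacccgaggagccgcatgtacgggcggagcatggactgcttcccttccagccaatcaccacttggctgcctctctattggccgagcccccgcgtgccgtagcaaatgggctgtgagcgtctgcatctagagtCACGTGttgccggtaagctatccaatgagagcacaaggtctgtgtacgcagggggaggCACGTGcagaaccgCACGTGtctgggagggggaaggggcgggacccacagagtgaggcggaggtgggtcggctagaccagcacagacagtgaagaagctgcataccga
Per1 had 1 E-box and 1 CREB core in this window, and Ciart had 3 E-boxes and 0 matches to the other 2 motifs.

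**Figure D4:**
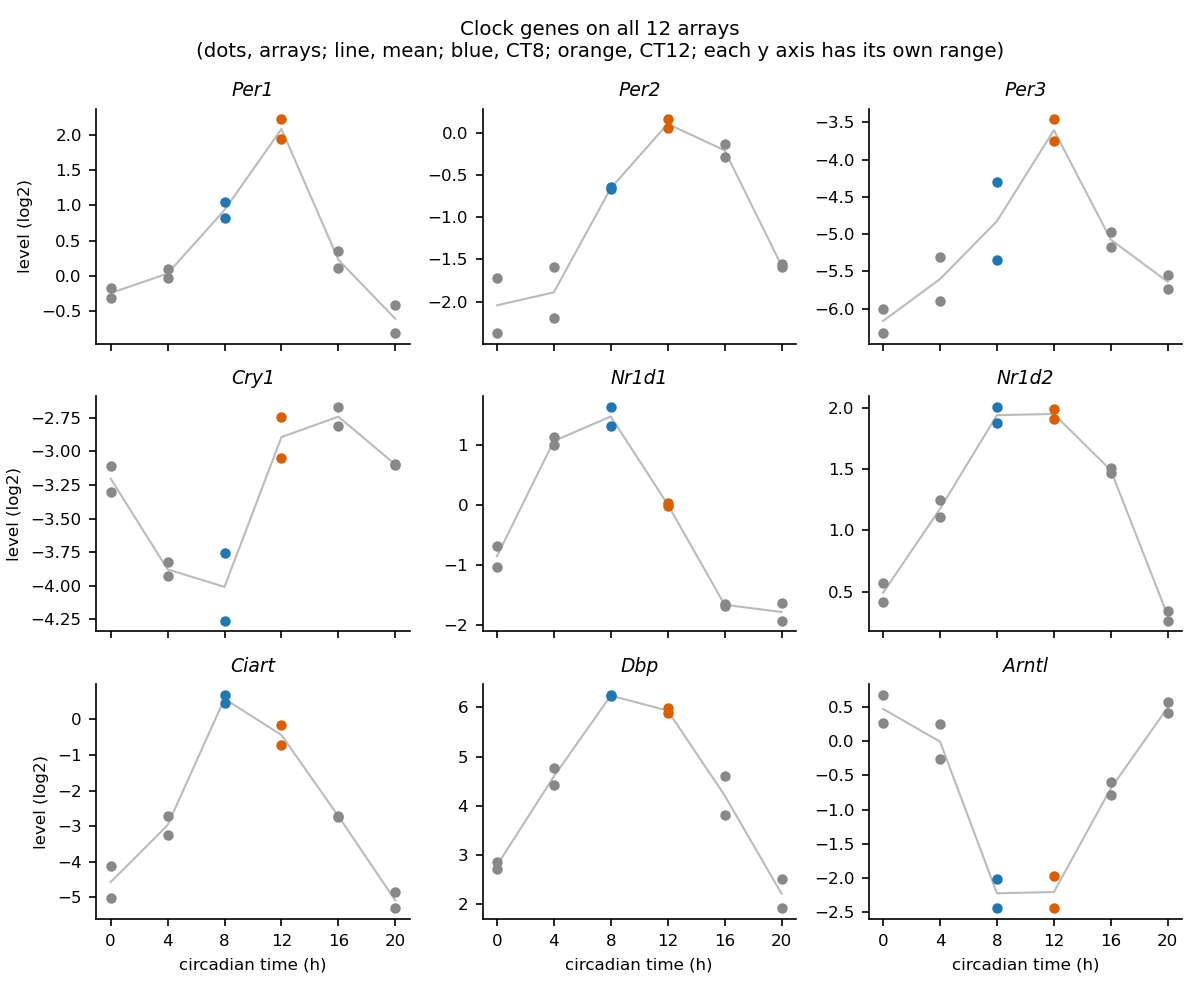
Levels (log2, own range per panel) of 9 clock genes on all 12 arrays against circadian time in hours, with CT8 in blue, CT12 in orange and a line through the means. Per1, Per2 and Per3 are highest at CT12, Cry1 at CT16, and Nr1d1, Ciart and Dbp at CT8.

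Among 20 clock output genes, 6 were higher and 1 lower at an unadjusted p under 0.05, beside 5.96% and 7.08% of all genes, with a median of 0.14; with median scaling 2 were higher and the median was 0.0848. Higher were the cell-cycle kinase Wee1 (0.66), the tetraspanin Tspan4 (0.54), the repressor Nfil3 (0.36), the kinase Pdk4 (0.36), Klf9 (0.35, another probe -0.03) and the polymerase Rev1 (0.34). Lower was Bhlha15 (-1.30), whose other probe gave 0.17. The PAR-domain factors, direct outputs of the loop, were between: Dbp had 6.26 and 6.22 at CT8 and 5.88 and 5.99 at CT12 (-0.30 ± 0.28), Tef differed by 0.06 (another probe -0.32) and Hlf by 0.34 (adjusted p = 0.589). Against the step from CT16 to CT20, 11 output genes were more positive and 3 more negative at an unadjusted p under 0.05. Of all genes 7.49% and 9.23% were. For Dbp the 2 differences were -0.30 and -2.00 (their contrast 1.70 ± 0.39, adjusted p = 0.142).

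Genes that respond to glucocorticoid hormone, which was not measured, had a positive difference in 17 of 23. Of these 23, 8 were higher and 3 lower at an unadjusted p under 0.05, beside 5.96% and 7.08% of all genes. The list median was 0.31, beside -0.33 from CT16 to CT20 and -0.11 from CT0 to CT4. Tsc22d3 (GILZ), a classical glucocorticoid target, had 2.76 and 2.27 at CT8 and 3.60 and 3.90 at CT12 (1.23 ± 0.19, 2.35-fold, adjusted p = 0.215), and 2 further probes gave 1.14 and 1.27. Cebpd had 3.22 and 3.95 against 4.75 and 5.27 (1.43 ± 0.25, 2.69-fold, adjusted p = 0.246). Sgk1 differed by 0.62 and Cebpb by 0.41 (another probe 0.84). Per1 and Dusp1 are also on this list. Fkbp5, usually among the strongest targets, had -1.24 and -1.83 against -1.54 and -0.84, with overlapping arrays (0.35 ± 0.32). Its other probes gave 0.26 ± 0.39 and 0.85 ± 0.38. The receptor gene Nr3c1 differed by 0.12, and its other probes gave 0.18, 0.36 and 0.37. The metallothioneins Mt2 (-0.49) and Mt1 (-0.39) and Arrdc2 (-0.37) were lower.

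Cytosolic chaperones, which are known to be induced by heat, and cold-inducible RNA-binding proteins had medians of opposite sign, 0.11 and -0.50. Of 21 heat shock genes 6 were higher and 0 lower at an unadjusted p under 0.05, beside 5.96% and 7.08% of all genes; with median scaling 3 were higher and the median was 0.0522. Dnajb1 had 4.35 and 4.40 at CT8 and 4.91 and 5.02 at CT12 (0.59 ± 0.10, adjusted p = 0.215); Dnaja1 differed by 0.47 (other probes 0.14 and 0.20), Hspa8 by 0.36, Hspa1a by 0.33 and Dnajb4 by 0.27. Their regulator Hsf1, 1 of the 6, differed by 0.67, but its 2 other probes gave -0.15 and -0.13. All 3 cold-inducible genes were lower at an unadjusted p under 0.05, with differences of -0.60 for Srsf5, -0.50 for Cirbp and -0.37 for Rbm3. A second Rbm3 probe gave 0.41 ± 0.24. Genes of endoplasmic reticulum folding had a median near 0 (-0.05, and 0.0084 with quantile scaling). At an unadjusted p under 0.05, 2 of 23 were lower, Sdf2l1 among them at -0.37, and 0 higher, beside the same shares of all genes.

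Sterol synthesis genes, targets of the SREBP factors, were mostly lower at CT12. Of 21, 20 had a negative difference, 14 had CT12 arrays below both CT8 arrays, and 9 were lower and 0 higher at an unadjusted p under 0.05; of all genes 24.5% lay below without overlap and 7.08% were lower. The median was -0.33. The named enzymes were Lss (-0.63), Mvd (-0.57), Fdps (-0.56), Sqle (-0.48), Nsdhl (-0.46), Dhcr7 (-0.44), Msmo1 (-0.44), Idi1 (-0.43) and Mvk (-0.40). For Mvd, the decarboxylase of the mevalonate pathway, the arrays gave 1.51 and 1.61 at CT8 and 0.73 and 1.24 at CT12 (adjusted p = 0.272). CT12 was the lowest of the 6 times for 15 of the 21. A dimmer Fdps probe gave 0.07 and a second Nsdhl probe 0.20. With quantile scaling 5 in place of 9 were lower at that threshold, with median scaling 13.

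Proteasome subunits gave small differences of 1 sign. All 24 measured were lower at CT12, 21 of them without overlap, and 8 at an unadjusted p under 0.05 (24.5% and 7.08% of all genes), but the median was only -0.19. The 8 became 13 with normexp and 5 with quantile scaling and in the authors' table. Psma4 (-0.31) of the core particle and Psmd1 (-0.28) and Psmd12 (-0.27) of the regulatory particle were among the largest. With quantile scaling 23 of 24 differences were negative and the median was -0.15. Among respiratory chain genes, 19 of 32 had lower CT12 arrays without overlap and 4 were lower at an unadjusted p under 0.05, beside the same 24.5% and 7.08%; Ndufv2 (-0.28) and Cox5a (-0.22) were among them. The median was -0.11 with 3 positive differences, or -0.0455 with 12 positive under quantile scaling. Cytosolic ribosomal protein genes had a median of -0.05 (-0.0179 with quantile scaling), with 1 of 33 lower at that threshold (Rps19, -0.26) and 0 higher.

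Urothelial genes were mostly lower at CT12 as well. Of 28, 24 had a negative difference, 17 without overlap; 8 were lower and 0 higher at an unadjusted p under 0.05, and the median was -0.25. Of all genes 24.5% lay below without overlap and 7.08% were lower. With quantile scaling 4 and with median scaling 11 were lower in place of 8. The tight junction protein Cldn4 had 0.93 and 0.75 at CT8 and -0.00 and 0.20 at CT12 (-0.74 ± 0.19, adjusted p = 0.265). Krt20, a keratin of the superficial umbrella cells, had 5.07 and 5.24 against 4.38 and 4.90 (-0.52 ± 0.18). The uroplakins Upk1b (-0.38) and Upk2 (-0.36), which form the apical plaques, were also lower, as were Psca (-0.51), Sprr1a (-0.45), Cldn8 (-0.43) and Krt7 (-0.26). Upk3a (-0.34 ± 0.30) and the basal-cell genes Krt5 (-0.42 ± 0.19) and Trp63 (-0.42 ± 0.22) did not pass. CT12 was the lowest time for 18 of the 28. The CT12 array of replicate 1 was below that of replicate 2 for Krt20 and Psca (2.38 against 2.99), and the list mean relative to all 12 arrays was -0.26 and -0.14 on the CT12 arrays and -0.11 and 0.18 on the CT8 arrays. In a whole organ, fewer cells of a type and less RNA per cell cannot be told apart.

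Mesothelial genes, of the serosal covering, were listed after the values were seen, since Bnc1 and Lrrn4 were among the largest negative differences. Of 20 measured, 13 had CT12 arrays below both CT8 arrays, 6 were lower and 0 higher at an unadjusted p under 0.05 (24.5% and 7.08% of all genes), and the median was -0.57, or -0.39 with normexp and -0.36 in the authors' table. The 6 include Bnc1 and Lrrn4, which prompted the list, so this count cannot be weighed against the shares of all genes. Bnc1 had -2.96 and -3.71 at CT8 and -4.90 and -4.69 at CT12 (-1.46 ± 0.48), and Lrrn4 had -1.17 and -2.45 against -3.21 and -2.87 (-1.23 ± 0.45). Wt1 differed by -1.01, Rspo1 by -0.86 and Lrp2 by -0.85. Mesothelin (Msln), with 2.95 and 1.98 against 1.60 and 1.35, differed by -0.99 but did not pass (adjusted p = 0.482). In several of these genes replicate 1 of CT8 was well above replicate 2, and the list mean was 0.59 and 0.13 on the CT8 arrays against -0.29 and -0.11 on the CT12 arrays. The part of serosal content in these values was not tested. Keratins and uroplakins that both linings express (Krt8, Krt18, Krt19, Upk1b and Upk3b) stand on both lists.

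Gap junction genes gave 2 lower and 0 higher members of 13 at an unadjusted p under 0.05, beside 7.08% and 5.96% of all genes. Both are expressed in stratified epithelia: Gjb5 with -1.21 and -1.61 at CT8 and -2.20 and -2.84 at CT12 (-1.11 ± 0.28), and Gjb6 (-0.41 ± 0.14). Gja1 (connexin 43), the gap junction protein of bladder muscle, had -0.54 and -0.93 against -0.87 and -0.58, a difference of 0.01 with overlapping arrays, and its sign changed under median scaling. Over the step from CT16 to CT20 it differed by -1.01.

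Stromal genes gave differences of both signs. At an unadjusted p under 0.05, 3 of 31 (9.68%) were higher and 2 (6.45%) lower, beside 5.96% and 7.08% of all genes. The 9 collagens listed had a median of 0.28, beside 0.35 from CT16 to CT20 and -0.38 from CT0 to CT4. Relative to all 12 arrays, their mean was -0.07 and 0.36 on the CT0 arrays and 0.25 and -0.18 on the CT20 arrays. It was 0.06 and 0.05 on the CT8 arrays and 0.43 and 0.27 on the CT12 arrays. Col3a1, at 0.45, had adjusted p = 0.405. All 9 had higher CT12 arrays without overlap, beside 19.7% of all genes, but 0 passed an unadjusted p under 0.05. Fibronectin (Fn1, 0.66), vimentin (Vim, 0.62) and the protease Adamts1 (0.62) were higher at that threshold. Hyaluronan synthase Has2 had -2.11 and -1.78 at CT8 and -2.79 and -3.33 at CT12 (-1.11 ± 0.21, adjusted p = 0.246), although a dimmer probe gave 0.28, and Spon2 differed by -0.83. Cell-cycle genes had a median of 0.16. Of 35, 2 (5.71%) were higher and 0 lower at an unadjusted p under 0.05, a share no larger than that of all genes. The 12 genes of G2 and M phase were all higher, 10 without overlap (19.7% of all genes) and 0 at an unadjusted p under 0.05. Their median was 0.52, beside 0.66 from CT16 to CT20 and -1.61 from CT0 to CT4. Replicates of the other steps were uneven. Relative to all 12 arrays, the mean of these genes was 0.40 and 1.96 on the CT0 arrays and 0.04 and -0.65 on the CT20 arrays. It was -0.08 and 0.05 on the CT8 arrays and 0.60 and 0.35 on the CT12 arrays. The growth-arrest gene Gadd45g had 4.48 and 4.67 against 5.61 and 5.95 (1.20 ± 0.24, adjusted p = 0.246).

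Contractile genes of smooth muscle were close to level, with a median of 0.06 (0.0018 with median scaling). At an unadjusted p under 0.05, 2 of 26 were higher (0 with median scaling) and 0 lower, beside 5.96% and 7.08% of all genes. Kcnmb1, the beta subunit of the BK channel that restrains bladder contraction, differed by 0.38 (adjusted p = 0.329). Of 20 autonomic receptors, 2 were higher and 0 lower at an unadjusted p under 0.05, beside the same shares of all genes. Adra2a differed by 0.34 (other probes 0.13 and 0.42). Of 24 stretch and purinergic sensors, 3 were higher and 1 lower at that threshold, beside 5.96% and 7.08% of all genes. The stretch-activated channels Kcnk2 (0.99 ± 0.38) and Piezo2 (-0.48 ± 0.14) had opposite signs, and the ATP and UDP receptors P2rx7 (0.47, another probe 0.04) and P2ry6 (0.30) were higher. In the prostaglandin and nitric oxide list, 3 of 19 were higher and 1 lower at that threshold, beside the same shares of all genes. The receptors Ptgfr (0.80) and Ptger4 (0.49) were higher together with Ptgs2, and Gucy1a1, a subunit of the nitric oxide receptor, was lower (-0.71 ± 0.18, another probe -0.23). Ion transport genes gave 1 higher of 29, the NKCC1 cotransporter Slc12a2 (0.36), and 2 lower, among them the sodium channel subunit Scnn1b (-0.40). These shares, 3.45% and 6.90%, were no larger than those of all genes.

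Of 6 genes of the aryl hydrocarbon receptor axis, 3 were higher and 1 lower at an unadjusted p under 0.05, beside 5.96% and 7.08% of all genes. Cyp1a1, its best-known target, had 0.91 and 0.11 at CT8 and 2.35 and 1.62 at CT12 (1.48, 2.78-fold, adjusted p = 0.29), and Tiparp differed by 1.09 (adjusted p = 0.246). The glutathione and NADPH enzymes Gclc (-0.58) and G6pdx (-0.45), targets of NRF2, were lower. Of 12 NRF2 targets listed, 2 were lower and 0 higher at that threshold, beside the same shares of all genes. Interferon genes had 1 of 16 higher (Ifit2, 0.68), a share of 6.25% beside 5.96% of all genes. Their median was 0.02, or -0.04 with median scaling.

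**Figure D5:**
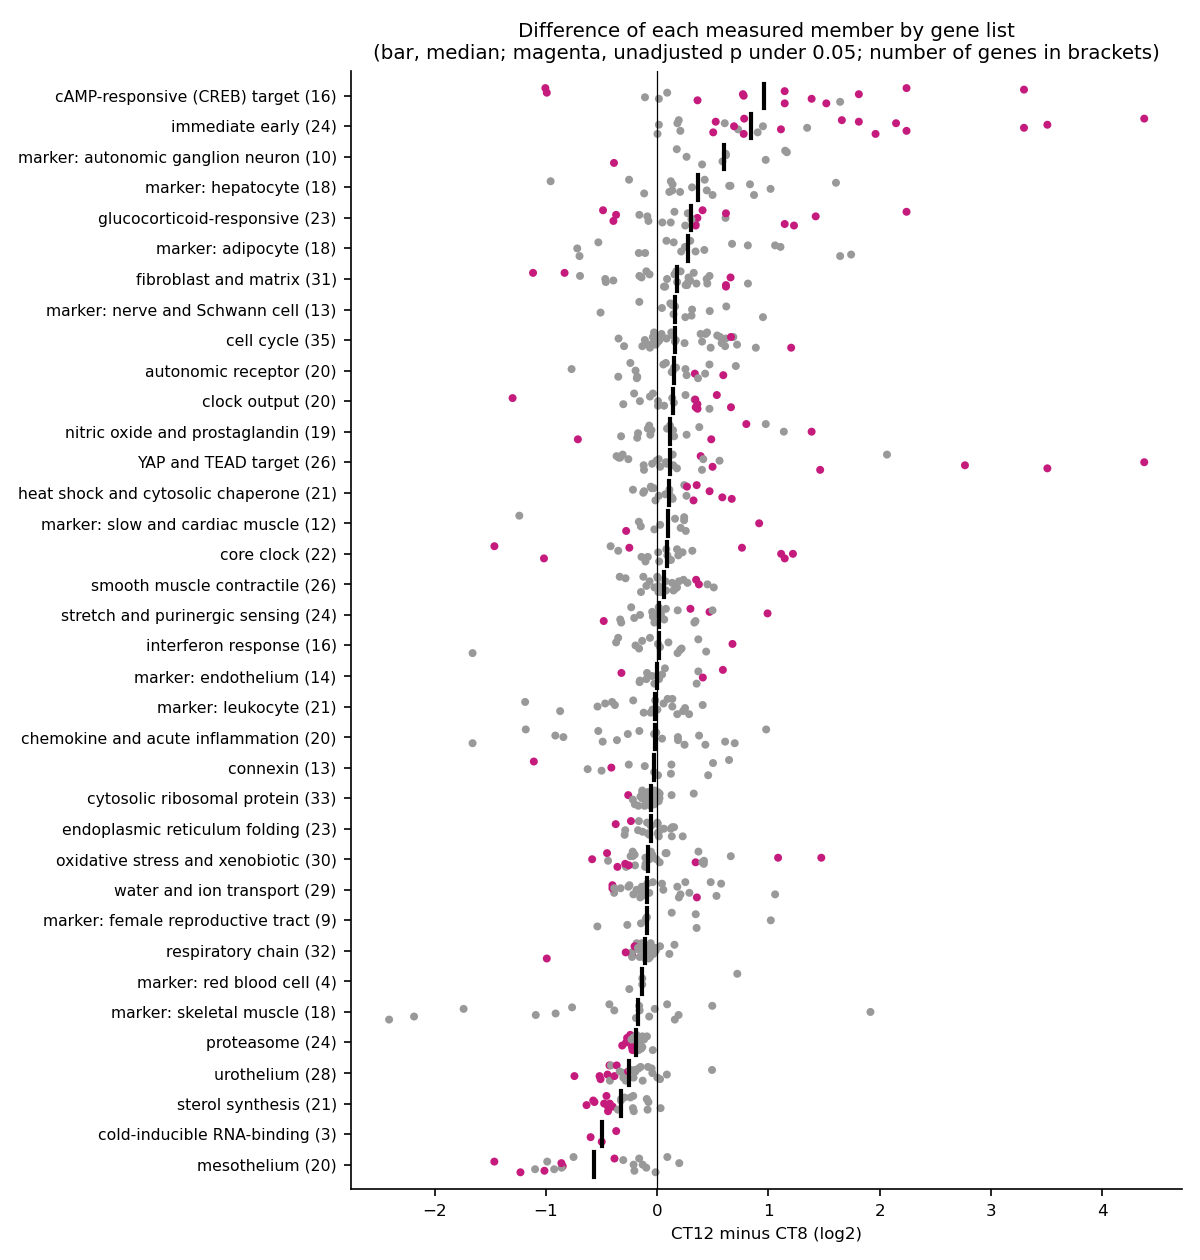
Each dot is 1 measured gene of a list, placed by its CT12 minus CT8 difference (log2); bars are medians, magenta marks an unadjusted p under 0.05, and brackets give the number of genes. Immediate early genes lie at or above 0 with a median of 0.84 (22 of 24 under median scaling and 23 under normexp), and proteasome, urothelium, sterol synthesis and mesothelium lie mostly below it.

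Marker lists of other tissues and cells were counted because their content can vary from one dissection to the next. Leukocyte markers had 0 of 21 without overlap in either direction, beside 44.2% of all genes, and a median of -0.02 (0.0036 with normexp). Adipocyte and hepatocyte markers had medians of 0.27 and 0.37, with 0 of 18 each at an unadjusted p under 0.05. Relative to all 12 arrays, the hepatocyte list mean was 2.46 on CT12 replicate 2 and -0.61 on replicate 1. It was 0.81 and 0.29 on the CT8 arrays, so that CT12 replicate 2 stood apart among the 4 arrays. In the whole series CT20 replicate 2 was higher still, at 2.76. Skeletal muscle markers had a median of -0.18 with 0 of 18 passing. Ganglion neuron markers had a median of 0.60 (0.10 with normexp and 0.17 in the authors' table). Their mean, however, was -1.29 on CT8 replicate 1 against 0.83 on replicate 2. At that threshold 0 of 10 were higher and 1 was lower. Of 14 endothelial markers 2 were higher, Esm1 (0.59) and Robo4 (0.41), and 1 lower, Cldn5 (-0.32), beside 5.96% and 7.08% of all genes. Their median was -0.0035, and 0.0357 in the authors' table. The part of these tissues in the differences above was not tested.

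Several single genes outside these lists had large differences. Nnat, a small membrane protein of neural and endocrine cells, had -4.57 and -1.73 at CT8 and 0.00 and 0.34 at CT12 (3.32 ± 0.92, adjusted p = 0.265), with a wide gap between its CT8 arrays. Angptl7, a secreted angiopoietin-like protein, was tighter, with -2.86 and -2.81 against -0.94 and -0.59 (2.07 ± 0.31, adjusted p = 0.215). Tm4sf20 (2.16), the carboxylesterase Ces1g (1.72), a gene also known from liver, and Crtac1 (1.52) were also among the 15 largest.

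Lower at CT12 were Xlr3c, with -1.85 and -0.80 against -3.62 and -2.76 (-1.87 ± 0.55), and the amino acid transporter relative Slc6a18, with -2.94 and -4.87 against -5.97 and -5.53 (-1.84 ± 0.57). The kappa opioid receptor Oprk1 had -3.02 and -3.26 against -4.45 and -4.16 (-1.16 ± 0.15, adjusted p = 0.154). Ripor3 (-1.13, another probe -0.26) and the sulfotransferase Sult1c2 (-1.21) were lower without overlap as well.

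The smallest p of all genes belonged to Rasgrf1, a Ras guanine nucleotide exchange factor, which was chosen for mention after its values were seen: -2.60 and -2.70 at CT8 against -3.62 and -3.55 at CT12 (-0.93 ± 0.10, adjusted p = 0.154). Glt8d2 (1.34 ± 0.16, adjusted p = 0.154), Siah2 (0.81 ± 0.11), Cys1 (1.22 ± 0.17) and Crlf3 (0.55 ± 0.08), chosen in the same way, had adjusted p-values from 0.154 to 0.215. All other genes named outside the naming rule of the methods were likewise chosen after their values were seen.

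A small set of dim genes was well above background on both arrays of one time and on neither of the other: 169 at CT12 and 7 at CT8. Transcripts known from liver, such as F7, Dio1, Lcat, Lipc and Sult2a2, are among the 169. The hepatocyte list mean was 2.46 on CT12 replicate 2, which stood apart among the 4 arrays. The part of liver-type transcripts in this count was not tested. Against the detection limit of the CT8 arrays, the sulfotransferase Sult2a2 was at least 4.64-fold and the glutamate receptor subunit Grin3a at least 3.51-fold higher at CT12 (adjusted p = 0.28 for Grin3a). Sult2a2 rested on 1 array, with -6.02 and -2.46 at CT12 (adjusted p = 0.571). Hormad1, a meiotic chromosome protein, was at least 2.58-fold higher at CT8 (adjusted p = 0.254). The second probes of Sult2a2, Grin3a and Hormad1 were well above background on none of the 4 arrays. More spots were well above background on the CT12 arrays (70.2% and 67.2%) than on CT8 replicate 1 (64.2%), while CT8 replicate 2 had 67.7%.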

How the data were processed

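Total RNA of whole bladder was hybridised to 12 Agilent 1-colour (Cy3) arrays, 2 per time. Spot intensity was read from the deposited scanner output of Feature Extraction 10.5.1.1, which per the file headers is background-subtracted and detrended per array and was not put on one scale across arrays. The deposited value table of the authors holds log2 values whose normalisation is not given in the sources used here, and it served only as an alternative; the submitters' processing notes name R 2.8.1.

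Spots marked as outliers were dropped, log2 values of 43379 spots were averaged into 41174 probes, of which 271 lacked a value, and each array's 75th percentile was subtracted. Names came from RefSeq accessions for 22919 probes, symbols for 6552 and synonyms for 3054; 8378 kept the file's name. The brightest probe stood for a gene, and 18390 genes well above background on at least 4 arrays were tested, 3831 of them with placeholder names. A 1-way limma 3.58.1 fit of time (R 4.3.3, Python 3.11.15; 6 residual degrees of freedom) gave the two-sided contrasts with Benjamini-Hochberg adjustment; it was tested on simulated data.

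Genes were named if past the adjusted threshold, among the 15 largest in each direction (named, well above background on all 4 arrays, unadjusted p under 0.05, no overlap), in the clock lists, among the 4 largest such members of another list, detected at one time only, or largest in the contrasts of steps. An item that this rule names is not reported here. At least N-fold bounds set a dim array at the lowest signal well above background on it. The gene lists and the comparison were chosen with earlier results of these data known. Alternatives were background, scaling, the authors' table, filters, probe choice, variance, slide, replicate block and leaving out an array. The main fit did not pair arrays by replicate number.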

Additional observations from a re-analysis of the deposited data

Results flagged for a closer look

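Nr1d1 was singled out because its step from CT8 to CT12 differed from its step from CT0 to CT4 by a direct test. The mean level differed by -1.46 from CT8 to CT12 and by 1.92 from CT0 to CT4, and the contrast of the 2 steps was -3.38 ± 0.23 (limma, adjusted p = 0.0095). Both CT12 arrays lay below both CT8 arrays and both CT4 arrays above both CT0 arrays. The call was lost with the mean of a gene's probes (smallest adjusted p = 0.0616), and 2 other Nr1d1 probes gave -1.06 and -0.20 from CT8 to CT12.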

How the results depend on the processing

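The 4 arrays limit every call: 0 genes passed the adjusted threshold of the step, against 2 with no filter on dim probes, 1 with a filter of 2 of the 4 arrays and 0 to 4 when 1 array was left out (4 without CT8 replicate 1, 1 without CT12 replicate 1). Genes higher at an unadjusted p under 0.05 numbered 688 with median scaling and 567 to 1330 with 1 array left out (567 without CT12 replicate 1, 659 without CT8 replicate 1), against 1096; genes lower numbered 689 in the 4 arrays of slide 2 alone and 635 to 1440 with 1 left out (635 without CT12 replicate 1), against 1302. Against the step from CT16, 0 genes passed adjustment, but 18 with normexp, 1 with median scaling, 31 in the authors' table, 2 with a filter of all 4 arrays, 2 with array weights, 22 with an intensity trend and 0 to 4 with 1 array left out. Against the step from CT0, 1 passed, but 2 with normexp, 2 in the authors' table, 2 with a replicate block, 0 with the mean of a gene's probes and 0 to 4 with 1 left out (0 without CT8 replicate 2 and without CT12 replicate 1); at an unadjusted p, 1737 to 3119 against 2803 (1737 without CT12 replicate 1). The replicate block left 0 adjusted calls of the step, with 1242 higher and 1570 lower; crossing the CT12 numbers, a setting added after the data were seen, gave 1178 and 1540. Over genes, the replicate 1 minus replicate 2 differences had correlations of -0.20 to 0.44 between times, and -0.12 between CT8 and CT12. These values do not settle whether the numbers pair arrays. List medians that moved by more than the spread between arrays were: immediate early 0.70 with normexp and 0.71 in the authors' table; core clock 0.14 with quantile and 0.0293 with median scaling; fibroblast and matrix 0.23 and 0.12; endoplasmic reticulum folding 0.0084, -0.11 and 0.0047 with quantile, median scaling and the authors' table; cell cycle 0.10 with median scaling; autonomic receptor 0.0576 in the authors' table; nitric oxide and prostaglandin 0.0575 with median scaling and 0.0749 in the authors' table; oxidative stress -4e-04 in the authors' table; endothelium 0.0256, 0.0233, -0.0616 and 0.0357 with normexp, quantile, median scaling and the authors' table. Median scaling moved the median of all genes from -0.01 to -0.07. Of 172 named genes under 18 settings, 3070 of 3092 values kept their sign and 22 did not, in 8 genes: Nr1d2 (-0.0043 normexp, -0.0487 median scaling, -0.0557 to 0.0746 with 1 array left out), Junb (-0.0011 normexp, -0.0425 median scaling, -0.27 to 0.30 with 1 left out), Arntl (-0.0421 quantile, -0.0398 median scaling, -0.0258 authors' table, -0.22 to 0.26 with 1 left out), Gja1 (-0.0499 median scaling, -0.19 to 0.20 with 1 left out), Fosl2 (-0.0548 median scaling, -0.14 to 0.14 with 1 left out), Ier2 (-0.0450 without CT8 replicate 1, up to 0.41 without CT8 replicate 2), Rbm3 (0.0203 for the mean of probes) and Fkbp5 (-0.0068 without CT12 replicate 2, up to 0.70 without CT12 replicate 1). The cause was not tested.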
